A study of Mus musculus with 2 samples.

Results

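Collagen chain genes were taken as every gene whose symbol has the form Col, a type number, the letter a and a chain number, which gave 44 of the 27998 genes in the count matrices. Their UMI (unique molecular identifier) counts were read in 4 classes of cells and in the free RNA of barcodes that held no cell. The cells came from the tumour microenvironment of PyMT C57BL/6N mice, in which a polyoma middle T transgene drives mammary tumours, and were selected for CD11c, a surface integrin of dendritic cells and many macrophages. Both libraries, replicate 1 and replicate 2, carry the label wild type and were made with droplet 3′ chemistry, so the study holds 1 group and the comparisons here are between classes of cells of the same captures. The labels do not say whether the libraries came from separate animals. The p-values below measure only how class differences vary between these libraries, pooled over the 4 classes, and this variation may be technical. The labels also do not give the age of the mice, the promoter of the transgene or whether tumours were pooled.

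Collagens are matrix proteins built from 3 alpha chains wound into a helix. Fibril-forming types I, III and V make the tensile fibres of connective tissue, types XII, XIV and IX sit on the fibril surface, type IV forms the network of basement membranes, and type VI forms beaded filaments around cells. In tumours, fibroblasts are known as the chief makers of fibrillar collagen, and epithelial and endothelial cells contribute chains of the basement membrane.

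The promoters of 4 members are shown as examples, picked with the counts below known. Col3a1 and Col5a3 had most of their cell UMIs in fibroblasts, and Col9a1 and Col11a1 in epithelial-like cells. Col3a1 helps to define the fibroblasts and has no test against them, and Col9a1 was not called between these classes with all cells. Each is the 150 bases before a RefSeq start on GRCm38.p6, read 5′ to 3′ on the gene's strand. This is the minus strand for Col5a3 and the plus strand for the others. None of these 4 windows overlaps an exon of GENCODE M21. Capitals mark a CCAAT box (CCAAT, or ATTGG on the other strand) or a TATA box (TATAAA), both searched on both strands with no overlap between them.
Col3a1: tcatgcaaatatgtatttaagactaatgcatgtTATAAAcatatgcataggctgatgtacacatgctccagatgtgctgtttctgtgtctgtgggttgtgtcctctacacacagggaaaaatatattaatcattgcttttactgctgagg
Col5a3: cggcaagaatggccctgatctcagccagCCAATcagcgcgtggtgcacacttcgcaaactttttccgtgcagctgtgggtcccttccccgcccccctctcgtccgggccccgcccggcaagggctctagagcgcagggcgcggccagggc
Col9a1: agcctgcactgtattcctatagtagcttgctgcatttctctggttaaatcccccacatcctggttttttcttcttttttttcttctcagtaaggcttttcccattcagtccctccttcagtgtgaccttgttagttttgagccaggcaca
Col11a1: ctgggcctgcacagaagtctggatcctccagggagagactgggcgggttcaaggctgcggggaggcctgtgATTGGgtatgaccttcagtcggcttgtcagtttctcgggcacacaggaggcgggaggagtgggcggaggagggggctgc
The windows lie at chr1:45311388-45311537 (Col3a1), chr9:20815068-20815217 (Col5a3), chr1:24177460-24177609 (Col9a1) and chr3:114030390-114030539 (Col11a1). The CCAAT box of Col5a3 began 122 bases before the start and that of Col11a1 began 79 bases before it. The TATAAA of Col3a1 began 117 bases before the start, and neither word lay in the window shown for Col9a1. A second RefSeq start of Col9a1 has its window at chr1:24195053-24195202, which overlaps an exon and is not shown. It holds a CCAAT that began 18 bases before that start. Of 38 windows of the 35 members that matched the RefSeq table, 8 held CCAAT and 4 held TATAAA, against 24.5% and 7.57% of 32851 windows of all genes. Of the 38 windows, 18 overlap an annotated exon. Another motif, the SOX core ACAAAG or ACAATG on either strand, lay in 1 member window (Col28a1) against 15.5% of all windows. These are letter matches only. Some members start back to back: Col4a1 and Col4a2 start 21 bases apart on chromosome 8, with their first bases overlapping, and Col4a4 and Col4a3 start 72 bases apart on chromosome 1.

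Replicate 1 gave 1899 cells and replicate 2 gave 1215, with medians of 5665 and 7146 UMIs per cell. Fibroblasts were the 24 and 25 cells in which Col1a1, Col1a2 and Col3a1 together made up at least 0.3% of UMIs. Epithelial-like cells numbered 107 and 40, macrophage-like cells 578 and 223, and dendritic-like cells 336 and 276. The last 3 were named from clusters built without any collagen gene. Levels are given in CPM, the UMIs of a gene per 1000000 UMIs of the class in a library. One UMI stands for one 3′ end, so levels of different genes need no correction for length.

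For the class as a whole, the fibroblast label held against its markers. All 18 fibroblast markers had UMIs in both libraries, at a summed level of 27204 and 35480 CPM, against 154 and 206 in macrophage-like cells. Pdgfra, a receptor of fibroblasts, stood at 114 and 132 CPM in the fibroblasts. Dcn, a matrix protein of fibroblasts, stood at 6540 and 9940 CPM there, against 346 and 251 in epithelial-like cells. Not every cell had such markers: the fibroblasts of 3617 UMIs (replicate 1) and 2955 UMIs (replicate 2) had 0 UMIs of Dcn and Lum. The lowest fibroblast had 0.486% of its UMIs in the 3 genes and the highest cell outside had 0.276%. Of the 49 fibroblasts, 47 lay in the cluster with fibroblast markers and the other 2 in epithelial-like clusters.

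Some cells held transcripts of more than 1 class, or of pericytes. By a rule chosen after the data were seen, 14 cells had at least 10 UMIs of Dcn and Lum (matrix proteins of fibroblasts) together with at least 10 of Epcam, Krt8 and Krt18 (epithelial genes), or at least 10 of Rgs5 (a pericyte gene). They included 3 fibroblasts, all in replicate 1, and 9 epithelial-like cells, 7 in replicate 1 and 2 in replicate 2. The other 2 lay in the endothelial-like cluster of replicate 1. One of the 3 fibroblasts, with 3617 UMIs, had 94 of Rgs5, 0 of Dcn and Lum and 1 of Epcam, Krt8 and Krt18. Some of the results they touch are given with and without these mixed cells. Other values in the text, the summed collagen levels among them, include mixed cells. Without them, epithelial-like cells of both libraries together held 2 Col5a1, 10 Col5a2, 4 Pcolce and 0 Ogn UMIs, fewer than the counts given below.

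Collagens made up a larger share of RNA in fibroblasts than in the other classes or in free RNA. The rule that chose fibroblasts by 3 collagen genes sets part of this contrast. In fibroblasts the 44 genes took 3.17% of UMIs in replicate 1 and 2.41% in replicate 2, of which the 3 genes that define the class took 2.63% and 1.86%. The other 41 genes took 0.545% and 0.549%. Summed collagen stood at 629 and 349 CPM in epithelial-like cells, 41.1 and 49.5 in macrophage-like cells, and 29.5 and 26.5 in dendritic-like cells. Free RNA, the barcodes of 1 to 50 UMIs, held 429 and 618 CPM, more than either myeloid class in both libraries.

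Of the 44 members, 7 had no UMI in any cell or in free RNA: Col10a1, Col19a1, Col22a1, Col24a1, Col26a1, Col6a4 and Col6a5. A further 7 had 1 to 9 UMIs in all cells (Col13a1, Col20a1, Col23a1, Col2a1, Col4a3, Col4a4 and Col8a2), and 30 had at least 10. The filter on low counts passed 24. A member that passed only through the class in which it is high had to differ, so the counts of called members below describe and support nothing further.

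**Figure D1:**
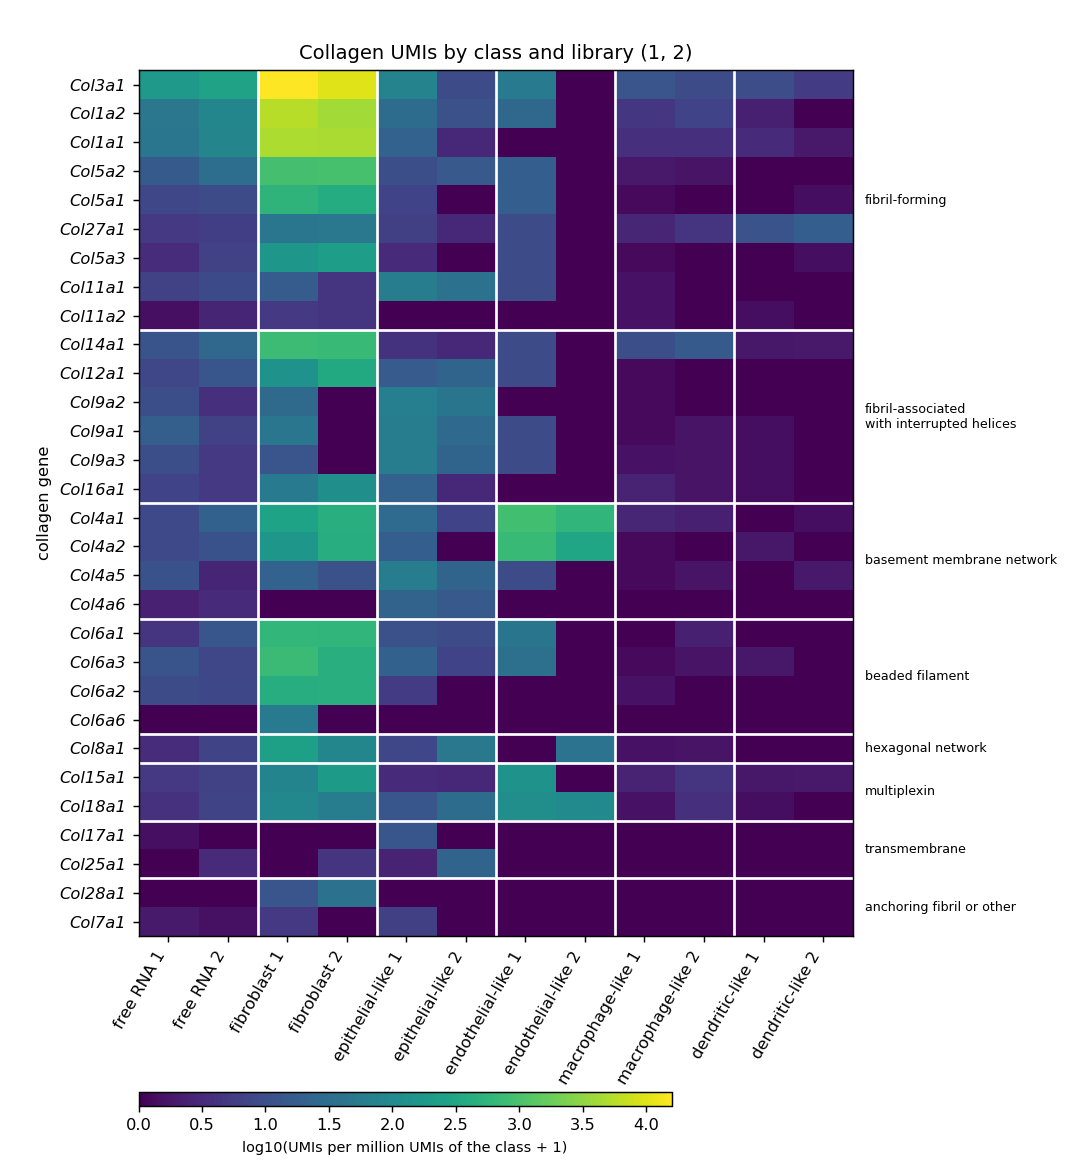
Level of the 30 collagen genes with at least 10 UMIs in cells (rows, by family) in free RNA and each class, by library (columns), as log10 of CPM plus 1, from dark purple (0) to yellow (highest). Col3a1, Col1a2 and Col1a1 are brightest in the fibroblast columns, while within each library Col9a1, Col9a2, Col9a3 and Col11a1 are brighter in the epithelial-like than in the fibroblast column.

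Fibril-forming chains made up 88.1% and 83.9% of the collagen UMIs of fibroblasts, a share that includes the 3 genes that chose the cells. Col3a1, the single chain of type III collagen, had 4005 and 2886 UMIs, or 15713 and 9784 CPM. Col1a2 and Col1a1, the chains of type I, had 5657 and 4218 and 4896 and 4611 CPM. Since these 3 genes chose the cells, their levels in fibroblasts are a description with no test. Col3a1 was the most counted collagen in both libraries, and the order of Col1a1 and Col1a2 was not the same in both.

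Type V collagen, which nucleates fibrils of types I and III, was the next fibril-forming type. Col5a2 had 236 and 277 UMIs in fibroblasts (926 and 939 CPM) against 12 and 7 in epithelial-like cells. Col5a1 had 137 and 119 against 8 and 0. Col5a3 had 42 and 66 against 3 and 0. The fibroblast levels lay above the epithelial-like levels in both libraries for the 3 chains. With edgeR the log2 fold of fibroblasts over epithelial-like cells was 6.60 for Col5a2 (SE 0.28, adjusted p = 2.64e-09) and 6.98 for Col5a1 (SE 0.40, adjusted p = 7.71e-09). For Col5a3, with 3 UMIs in epithelial-like cells, the pooled ratio was 119 (95% interval from counting 39.5 to 584). All 3 lay in 1 mixed cell, on which this ratio rests. Without mixed cells, epithelial-like cells had 0 Col5a3 UMIs and fibroblasts 99. Col27a1, a fibrillar chain known from cartilage, was also higher in fibroblasts, with 11 and 14 UMIs against 7 and 1 (log2 fold 3.45, SE 0.58, adjusted p = 0.0005). Col11a2 had 5 UMIs in each library over all cells and no class held more than 2 of them in a library.

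Among the 21 members that passed the filter and did not define the class, edgeR called 15 higher in fibroblasts than in epithelial-like cells, where 11.6% of 4840 tested genes were called higher. It called 2 lower, where 8.26% were. The median log2 fold of the 21 was 3.80, and that of all tested genes was -0.10.

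Of the collagens on the fibril surface, Col14a1 was the most counted in fibroblasts. It had 195 and 209 UMIs (765 and 709 CPM) against 4 and 1 in epithelial-like cells, a log2 fold of 8.16 (SE 0.34, adjusted p = 1.05e-09). Its level in fibroblasts was close in both libraries, and 43 of the 49 cells held a UMI. Col12a1, its close relative, had 36 and 103 UMIs against 20 and 11 (log2 fold 3.80, SE 0.33, adjusted p = 9.48e-07). Col16a1 had 14 and 36 against 26 and 1 (log2 fold 2.88, SE 0.61, adjusted p = 0.00323). Both stood higher in CPM in replicate 2 than in replicate 1. In replicate 2, 37 of the 103 Col12a1 UMIs came from 1 cell.

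Epithelial-like cells carried another set. Type IX collagen, a heterotrimer of Col9a1, Col9a2 and Col9a3 that coats type II fibrils in cartilage, was counted from its 3 genes together: Col9a1 had 75 and 13 UMIs, Col9a2 had 83 and 21, and Col9a3 had 77 and 11. Their levels were 57.2 and 25.9, 63.3 and 41.9, and 58.8 and 21.9 CPM. Col11a1, a fibrillar chain of cartilage and of other tissues, had 74 and 19 UMIs (56.5 and 37.9 CPM). The 4 genes stood within about the same range in a library, and all 4 were lower in CPM in replicate 2. Epithelial-like cells with a Col9a2 UMI were 43.9% and 35.0%. Thinned to 1900 UMIs per cell they were 13.1% and 10.0%. Of macrophage-like cells, a type not known to express type IX collagen, the shares were 0.173% and 0% unthinned and 0% in both thinned. Median depths were 8635 and 9531 UMIs in epithelial-like and 4942.5 and 6043 in macrophage-like cells, and thinning left out no cell.

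Fibroblast counts of these 4 genes came mostly from mixed cells. Over all fibroblasts, Col9a1 had 11 and 0 UMIs, Col9a2 had 7 and 0, Col9a3 had 3 and 0, and Col11a1 had 4 and 1. One fibroblast of replicate 1 with 31158 UMIs, 49 of Dcn and Lum and 130 of Epcam, Krt8 and Krt18, held 10 of the Col9a1 UMIs. Without mixed cells the counts were 1 and 0, 0 and 0, 0 and 0, and 0 and 1. With all cells, edgeR called Col11a1 lower in fibroblasts than in epithelial-like cells (log2 fold -2.15, SE 0.61, adjusted p = 0.0229) and Col9a3 lower, with a pooled ratio of 8.90 in favour of epithelial-like cells (95% interval from counting 2.95 to 44.0, adjusted p = 0.0163). It did not call Col9a1 (log2 fold -0.88, SE 0.60, adjusted p = 0.346) or Col9a2 (log2 fold -1.84, SE 0.63, adjusted p = 0.0546).

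Without mixed cells all 4 were called. The rule for mixed cells was chosen after the data were seen and removes fibroblasts that hold epithelial transcripts. It lowers fibroblast counts of genes high in epithelial-like cells, so these calls and folds are no independent support. Col9a2 was at least 10.3-fold higher in epithelial-like cells (edgeR adjusted p = 0.000263) and Col9a3 at least 8.99-fold higher (adjusted p = 0.000808), where the floor is 3 counts over both libraries. The pooled ratio was 27.0 for Col9a1 (95% interval 4.72 to 1078, adjusted p = 0.00243) and 27.9 for Col11a1 (4.88 to 1115, adjusted p = 0.00165). DESeq2 on all cells called none of the 21 lower. The 3′ ends of Col9a3, Col18a1 and Col4a1 overlap Tcfl5, Slc19a1 and Gm15418 on the other strand, and since no source used here gives the strand setting of the counting, reads of such partners cannot be told apart.

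**Figure D2:**
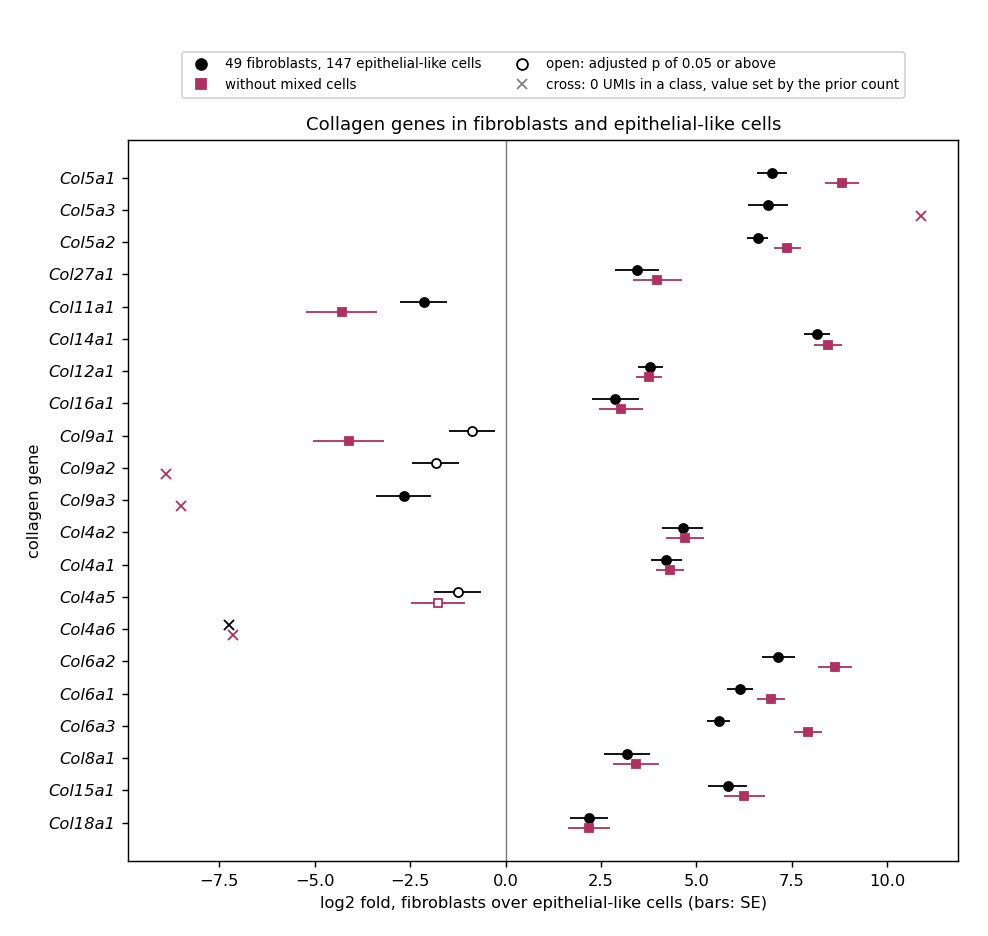
Log2 fold of fibroblasts over epithelial-like cells for each tested collagen gene (circles, bars are SE) and the same without mixed cells (squares); open symbols were not called, and crosses mark genes with 0 UMIs in 1 class, whose value depends on the prior count. Most genes lie to the right of 0, and the Col9 genes and Col11a1 move further left without mixed cells.

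The remaining epithelial-like members were few in UMIs and uneven between libraries. Col17a1, a transmembrane collagen of hemidesmosomes, had 16 UMIs in replicate 1, in 7 cells, and 0 in replicate 2. Col25a1, a transmembrane collagen, had 2 and 11. Col2a1, the cartilage fibril chain, had 9 and 0, of which 8 came from 1 cell. Col7a1, the anchoring fibril chain of the skin, had 7 and 0. None of these 4 passed the filter, and each was absent or near absent in 1 of the libraries.

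Type IV chains split between classes in count, and only Col4a1 and Col4a2 were called. Col4a1 and Col4a2, which pair in the basement membranes of nearly every tissue, had 70 and 126 and 43 and 121 UMIs in fibroblasts against 37 and 3 and 22 and 0 in epithelial-like cells. Both were called higher in fibroblasts (log2 folds 4.21, SE 0.41, adjusted p = 1.6e-06, and 4.64, SE 0.55, adjusted p = 1.41e-05). Col4a5 and Col4a6, the chains of specialised basement membranes, went the other way in count, with 75 and 11 and 27 and 7 UMIs in epithelial-like cells against 5 and 3 and 0 and 0 in fibroblasts. The epithelial-like class held more UMIs in all, 1310348 and 501327 against 254889 and 294957. Neither chain was called by edgeR (adjusted p = 0.179 and 0.0534), so this side of the split is a description. With a floor of 3 counts in fibroblasts, Col4a6 stood 3.44-fold higher in epithelial-like cells by count. The levels of Col4a5 were 57.2 and 21.9 CPM in epithelial-like cells, again lower in replicate 2. Col4a6 and Col4a5 start 1309 bases apart on chromosome X.

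Type IV chains were also counted outside the 4 classes. A cluster of 16 and 9 cells with 9 of 9 endothelial markers held 99 and 30 Col4a1 UMIs (840 and 588 CPM) and 82 and 15 Col4a2 UMIs (696 and 294 CPM). In fibroblasts Col4a1 stood at 275 and 427 CPM and Col4a2 at 169 and 410. Col4a2 in replicate 2 was thus higher in fibroblasts than over the whole cluster. That cluster level includes the 3 cells with plasmacytoid markers described below, which held no Col4a2 UMI. These 3 cells had 9396, 6988 and 7388 of the 50995 UMIs of the cluster in replicate 2. Without them its Col4a2 level lay above that of fibroblasts, with 11 of the 15 UMIs in 1 cell. Basement membrane chains made up 74.3% and 84.9% of the collagen UMIs of the cluster. Col15a1 and Col18a1, the multiplexins that lie beside basement membranes, had 17 and 0 and 14 and 5 UMIs there. Few cells carried these counts: 1 cell in each library held 37 of the 99 and 18 of the 30 Col4a1 UMIs. Without the 2 mixed cells of replicate 1, its other 14 cells held 51 Col4a1 UMIs (540 CPM), 40 of Col4a2 (424 CPM), 10 of Col15a1 and 4 of Col18a1. In a split chosen after the data were seen, 10 and 6 of these cells had at least 3 endothelial markers and held every UMI of Col4a1, Col4a2, Col15a1, Col18a1 and Col13a1 in the cluster. The other 6 and 3 cells each had at least 3 markers of plasmacytoid dendritic cells and no UMI of those 5 genes. Among the 10 and 6, 1 cell in each library also had at least 3 of the plasmacytoid markers. With so few cells no test was made.

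Type VI collagen, the beaded filament, made up 5.67% and 6.02% of the collagen UMIs of fibroblasts. These totals include the genes that chose the cells, so the families are not ranked. Col6a1 had 152 and 174 UMIs (596 and 590 CPM), Col6a2 had 107 and 125 (420 and 424 CPM), and Col6a3 had 185 and 129 (726 and 437 CPM). In epithelial-like cells Col6a3 had 25 and 3 UMIs, and 4 and 1 without mixed cells. Log2 folds of fibroblasts over epithelial-like cells were 6.14 for Col6a1 (SE 0.34, adjusted p = 1.11e-08), 7.15 for Col6a2 (SE 0.43, adjusted p = 2.11e-08) and 5.58 for Col6a3 (SE 0.31, adjusted p = 5.84e-09). Without mixed cells the Col6a3 value was 7.93 (SE 0.37). Col6a6, a chain of narrower distribution, had 14 UMIs in 4 fibroblasts of replicate 1, 7 of them in 1 cell, and 0 in replicate 2.

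Multiplexins and the hexagonal network chain Col8a1 were also called higher in fibroblasts. Col15a1 had 20 and 56 UMIs in fibroblasts against 3 and 1 in epithelial-like cells (log2 fold 5.81, SE 0.50, adjusted p = 5.18e-07). Col18a1, the source of endostatin, had 23 and 17 against 16 and 15 (log2 fold 2.18, SE 0.50, adjusted p = 0.00522). Col8a1 had 62 and 25 against 9 and 24 (log2 fold 3.19, SE 0.60, adjusted p = 0.00152). For Col8a1 a few cells held most UMIs: 9 of 49 fibroblasts had any, 1 cell had 47, and 1 epithelial-like cell of replicate 2 had 16 of the 24. Col28a1 had 3 and 11 UMIs, all in fibroblasts.

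Single fibroblasts differed widely in collagen content. The 3 defining genes took from 0.498% to 9.51% of a cell's UMIs in replicate 1 (median 1.99%) and from 0.486% to 5.28% in replicate 2 (median 1.31%), the lower ends being set by the threshold. The other 41 genes took from 0.205% to 1.33% (median 0.473%) and from 0.174% to 1.66% (median 0.417%). The cells of both libraries overlapped over nearly their whole range. A fibroblast held UMIs of 7 to 19 collagen genes in replicate 1 (median 13.5) and 7 to 18 in replicate 2 (median 15). Col4a1 was found in 39 of 49 cells and Col15a1 in 25. The cell with 1.66% had 2955 UMIs, 12 of Col4a1 and 6 of Col15a1, with none of Dcn, Lum or Rgs5.

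**Figure D3:**
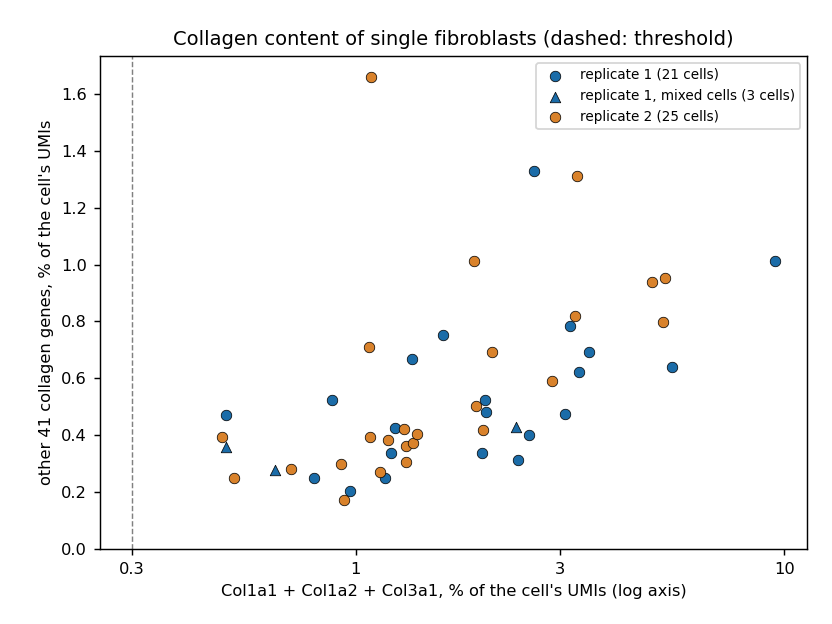
Each point is 1 fibroblast: the share of its UMIs in Col1a1, Col1a2 and Col3a1 (x axis, log scale, percent) against the share in the other 41 collagen genes (y axis, percent), by library. Cells of both libraries overlap, and the dashed line is the 0.3% threshold.

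Against macrophage-like cells, edgeR called 19 of the 21 testable members higher in fibroblasts (15.8% of all tested genes were called higher) and 0 lower (14.5% lower), with 20 higher and 0 lower at an unadjusted p under 0.05 and 19 and 0 by DESeq2. Without mixed cells 16 were higher, and Col9a1, Col9a2 and Col11a1 were no longer called (adjusted p = 0.426, 0.806 and 0.458). For the chains with the most UMIs the gap was wide: Col5a2 had 236 and 277 UMIs against 3 and 1. Against macrophage-like cells, epithelial-like cells had 19 of 24 members higher (23% of all tested genes) and 1 lower (21.3%), the lower one being Col14a1 (log2 fold -2.38, SE 0.51, adjusted p = 0.00139). Without mixed cells 14 were higher. Col3a1, Col1a1, Col1a2, Col5a1 and Col6a3 were no longer called (adjusted p from 0.0717 to 0.883), and Col3a1 in epithelial-like cells fell from 98 and 4 UMIs to 10 and 3. The type IX genes and Col11a1 remained called in this contrast without mixed cells.

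In macrophage-like and dendritic-like cells collagen levels lay below those of free RNA, except Col27a1 in dendritic-like cells, among the 23 members with at least 10 UMIs in free RNA. Fibril-forming chains made up 71.6% and 78.1% of the collagen UMIs of free RNA, and Col9a1 had 36 and 10 UMIs there. Col3a1 stood at 11.7 and 8.03 CPM in macrophage-like cells, 6.3% and 3.1% of its free RNA level of 186 and 258. It was found in 6.06% and 4.48% of macrophage-like and 5.95% and 3.62% of dendritic-like cells. Col1a1 and Col1a2 had 9 and 4 and 12 and 9 UMIs in macrophage-like cells and 5 and 2 and 3 and 0 in dendritic-like cells. Col3a1 and Col1a1 did not differ between these classes by edgeR (log2 folds 0.35 and 0.52, adjusted p = 0.670 and 0.666). How much of these counts is free RNA was not tested.

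**Figure D4:**
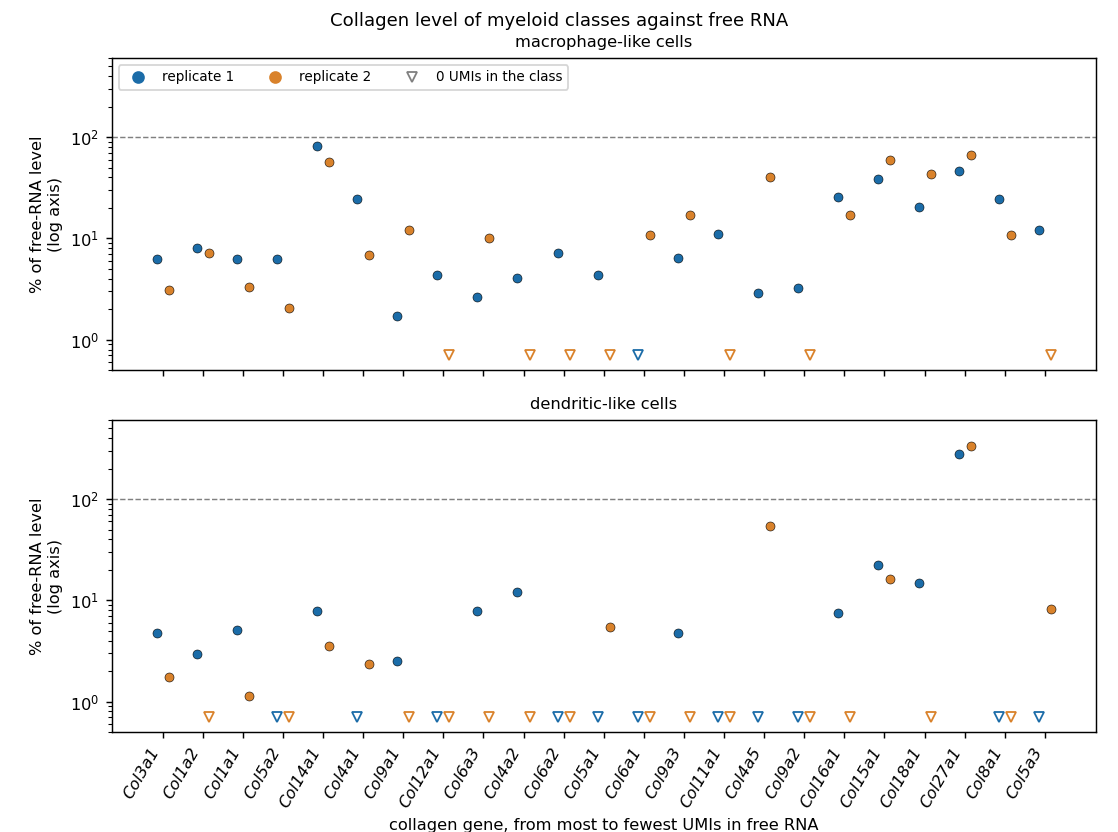
Level of each collagen gene in macrophage-like (upper panel) and dendritic-like cells (lower panel) as percent of its free RNA level, on a log axis, by library. The dashed line marks 100%; Col27a1 in dendritic-like cells is the one gene above it, and Col14a1 in macrophage-like cells lies at 82.4% and 57.4%.

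Among 24 members, edgeR called 2 higher in macrophage-like than in dendritic-like cells, where 15% of all tested genes were called higher, and 1 lower, where 12.5% were. Both shares lie below the background. Col14a1 had 31 and 22 UMIs in macrophage-like cells against 2 and 2 in dendritic-like cells, or 9.31 and 14.7 against 0.881 and 0.914 CPM. The class levels did not overlap. Its log2 fold was 3.37 (SE 0.51, adjusted p = 0.000155), and the pooled ratio was 12.2 (95% interval from counting 4.51 to 46.6). Col1a2 was also called, with 21 UMIs against 3 and a pooled ratio of 6.47 (1.93 to 33.9, adjusted p = 0.0353). Col27a1 went the other way, with 6 and 5 UMIs against 25 and 37, or 1.80 and 3.35 against 11.0 and 16.9 CPM (log2 fold -2.68, SE 0.47, adjusted p = 0.00052).

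The 2 genes stood out from Col3a1, the most counted collagen, in these classes. Per 100 Col3a1 UMIs, Col14a1 had 6.08 and 9.94 UMIs in free RNA, 4.87 and 7.24 in fibroblasts, 79.5 and 183 in macrophage-like cells, and 10 and 20 in dendritic-like cells. The 95% intervals from counting of macrophage-like cells (48.0 to 131 and 86.9 to 406) lay above those of free RNA (3.81 to 9.27 and 7.17 to 13.5) in both libraries. Col27a1 had 2.12 and 1.94 per 100 in free RNA against 125 and 370 in dendritic-like cells. The levels of Col14a1 in macrophage-like cells were still 82.4% and 57.4% of the free RNA level, and those of Col27a1 in dendritic-like cells 280% and 337%. Cells with a Col14a1 UMI were 4.50% and 7.62% of macrophage-like cells and 0.595% and 0.725% of dendritic-like cells, which are deeper (medians of 6248.5 and 7715 UMIs). Thinned to 1900 UMIs the shares were 1.38% and 3.14% against 0.298% and 0%. For Col27a1 they were 5.36% and 7.61% of dendritic-like against 1.04% and 2.24% of macrophage-like cells, and 2.08% and 3.62% against 0.519% and 1.35% after thinning.

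Within the myeloid clusters, Col14a1 was highest in a cluster of 226 and 222 cells that was left unnamed and had 8 of 12 macrophage markers above the other cells. There it had 42 and 74 UMIs, in 34 and 54 cells. Its level of 31.8 and 40.3 CPM (95% intervals 22.9 to 43.0 and 31.6 to 50.5) lay above that of free RNA, 11.3 and 25.7 CPM (7.16 to 16.9 and 18.8 to 34.2), with intervals that overlap in replicate 2. The main macrophage-like cluster had 14.4 and 18.5 CPM, and the cluster with conventional type 2 dendritic markers had 0 UMIs in 174 and 191 cells. A wider macrophage-like class added the cluster of 226 and 222 cells and 2 more unnamed clusters with macrophage markers. It held 880 and 463 cells, and its log2 fold over dendritic-like cells was 4.34. This class was chosen after the data were seen and takes in the cluster where Col14a1 was highest, so the larger fold supports nothing further. Col27a1 was highest in the cluster with markers of mature dendritic cells (Ccr7, Fscn1, Ccl22), with 15 and 20 UMIs in 11 of 48 and 10 of 25 cells (51.1 and 122 CPM). In the type 2 dendritic cluster it had 6.66 and 11.3 CPM and in the type 1 cluster 3.24 and 1.65. The intervals of the mature cluster (28.6 to 84.3 and 74.7 to 189) did not overlap those of the type 2 cluster (2.68 to 13.7 and 6.45 to 18.3). These cluster levels are a description with no test.

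**Figure D5:**
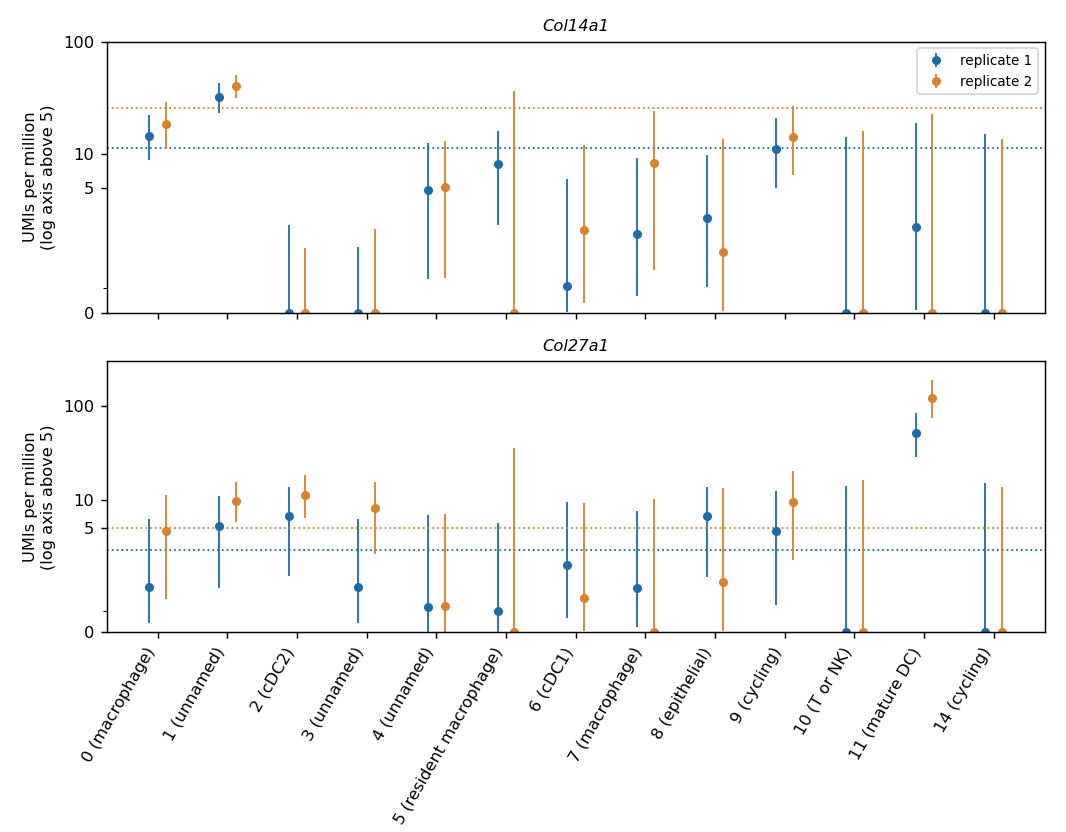
Level of Col14a1 (upper panel) and Col27a1 (lower panel) in each cluster other than the fibroblast cluster with at least 15 cells in both libraries, in CPM with 95% Poisson intervals (log axis above 5); dotted lines are the free RNA levels. Col14a1 is highest among myeloid clusters in cluster 1, and Col27a1 in the mature dendritic cluster.

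Of 58 other genes of collagen making and handling, 57 matched and 48 were tested. Of 18 tested enzymes and chaperones that assemble collagen, 14 were higher in fibroblasts than in epithelial-like cells and 0 lower, where 11.6% of all tested genes were higher and 8.26% lower. The same held for 8 of 8 genes that process and cross-link procollagen and 15 of 15 matrix proteins bound to fibrils, and for 2 of 7 receptors and uptake genes, with 2 lower. Serpinh1, the collagen chaperone, had 413 and 500 UMIs in fibroblasts against 108 and 23 (log2 fold 4.85, SE 0.28, adjusted p = 7.43e-09), and the prolyl hydroxylases P3h1 and P4ha3 had 18 and 9 against 2 and 1, and 8 and 21 against 1 and 0. Pcolce, which enhances procollagen cleavage, had 192 and 290 against 10 and 2 (log2 fold 7.24, adjusted p = 1.11e-08). Pcolce2 had 110 and 74 against 4 and 1, and the N-proteinase Adamts2 had 55 and 90 against 2 and 1. Of the fibril-bound proteins, Ogn (osteoglycin) had 96 and 161 against 2 and 0, Tnxb 53 and 101 against 1 and 0, and Lama2 18 and 34 against 0 and 0.

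The collagen receptors went in opposite directions. Ddr2, the discoidin receptor of fibrillar collagens, had 50 and 49 UMIs in fibroblasts against 2 and 0 in epithelial-like cells, and Mrc2, which takes up collagen, had 22 and 45 against 2 and 0. Ddr1, the discoidin receptor of epithelia, had 1 and 0 against 74 and 32 (adjusted p = 0.000372). Between macrophage-like and dendritic-like cells, 3 of 18 assembly genes were higher and 1 lower, 1 of 8 processing genes was higher and 1 lower, 1 of 15 matrix genes was higher, and 1 of 7 receptors was higher and 1 lower. With 15% of all tested genes higher and 12.5% lower, these shares are near the background or below it. The lysyl hydroxylase Plod1 had 122 and 46 UMIs in macrophage-like cells against 14 and 10 (log2 fold 2.45, SE 0.38, adjusted p = 0.000198). Crtap, a partner of P3h1, had 24 and 9 against 3 and 4. Fn1, fibronectin, had 445 and 398 against 59 and 61 (log2 fold 2.61, SE 0.27, adjusted p = 5.27e-06). Lair1, an inhibitory collagen receptor of leukocytes, had 447 and 260 against 48 and 11 (log2 fold 3.36, SE 0.36, adjusted p = 7.15e-06). Ddr1 was lower, with 2 and 2 against 25 and 29, and so was Bmp1, the C-proteinase, with 0 and 0 against 3 and 3. Neither was spread over the dendritic-like class. Over both libraries, Ddr1 had 49 UMIs in the type 2 cluster, 2 in the type 1 cluster and 3 in the mature cluster. All 6 Bmp1 UMIs lay in the mature cluster, and its call rests on them. Pcolce had 45 and 6 against 1 and 1.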

How the data were processed

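The deposited values are whole-number UMI counts in a matrix of genes by barcodes, for which the authors used Cell Ranger 2.2.0 and build mm10, per the submitters' processing notes, from the 3′ v2 kit, per the labels' protocol. Annotation release and strand setting: not given in the sources used here. All barcodes were in the deposited count files, with no filter on cells. Library totals were 17369071 and 13317214 UMIs.

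A barcode was called a cell at or above the 99th percentile of the 3000 largest barcodes divided by 10 (2112 and 1905 UMIs), with at least 200 genes and at most 10% mitochondrial UMIs. High mitochondrial share removed 83 and 90 barcodes, and Scrublet, at 0.8% doublets per 1000 cells, removed 31 and 13. The libraries shared 2 cell barcodes. Barcodes of 1 to 50 UMIs (308732 and 250502, with 2036634 and 1792257 UMIs) were free RNA. Cells were clustered by scanpy 1.11.5 and leidenalg 0.10.2 at resolution 1 on 14023 genes, with 13975 genes, all collagens among them, held out for testing. A cluster took the name of a list with at least 3 markers above the other cells, if no other list had more genes among its top 10 by fold, which left 3 clusters with macrophage markers unnamed.

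UMIs were summed per class and library (8 sums) and fitted with edgeR 4.0.16 (filterByExpr, TMM, quasi-likelihood, library as a block, 3 residual degrees of freedom). Of 9697 genes past the filter, the 4840 held-out ones were tested with Benjamini-Hochberg adjustment and called at an adjusted p under 0.05. The library is the pairing: both sums of a contrast come from the same capture. Intervals are exact 95% Poisson intervals, or exact conditional ones for ratios, and cover counting error only. The procedure was tested on simulated data. Members with at least 10 UMIs in cells or in free RNA were named, those past the filter with their test, and pathway genes by the largest fold per list. The members and lists were chosen with earlier results of these data known. Alternatives were DESeq2 1.42.0, other scaling, no filter, no block, other thresholds, clusterings and cell calls, and each library left out. Promoter windows came from RefSeq and gene overlaps from GENCODE M21.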

Additional observations from a re-analysis of the deposited data

How the results depend on the processing

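Of 59 called log2 folds, 45 kept their sign and call under every alternative run. The 2 members called lower in fibroblasts than in epithelial-like cells became 0 with DESeq2 and 4 with a fibroblast threshold of 1%, with the fibroblast-like cluster in place of the threshold, with no filter on low counts, with no scaling beyond library totals, and without mixed cells. The 2 members called higher in macrophage-like than in dendritic-like cells became 1 with DESeq2, with the 1% threshold, with the fibroblast-like cluster, and with no replicate block, which changed no other count of called members by over 1.5 times. The sign turned for Col9a2 in fibroblasts over macrophage-like cells (log2 fold -1.62 at the 1% threshold, -1.62 with the fibroblast-like cluster, -1.54 without mixed cells), where fibroblasts then had 0 Col9a2 UMIs and macrophage-like cells 1, so that the prior count sets these values and they show no reversal. It also turned for Col3a1 in epithelial-like over macrophage-like cells (-0.70 at a threshold of 0.1%, -0.76 without mixed cells, -0.36 without replicate 1) and for Col1a1 in the same contrast (-0.63, -0.47 and -0.47). Without replicate 2 these were 2.25 and 2.42. At the 0.1% threshold the epithelial-like class of replicate 1 went from 107 to 106 cells. The cell that left had 51390 UMIs, 142 of them of Col1a1, Col1a2 and Col3a1. It also had 78 of Dcn and Lum and 71 of Epcam, Krt8 and Krt18. The cause of these changes was not tested. Without scaling beyond library totals, the median log2 fold of all tested genes moved from 0.11 to 0.54 in epithelial-like over macrophage-like cells, from -0.10 to -0.30 in fibroblasts over epithelial-like cells, from -0.04 to 0.17 in fibroblasts over macrophage-like cells and from 0.07 to 0.26 in macrophage-like over dendritic-like cells. Counts of called members have no value when a library is left out, since no residual degrees of freedom remain.

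The class without mixed cells and the wider macrophage-like class were chosen after the data were seen. Fibroblasts are 49 cells, so a single cell can carry a rare chain, and a gene with few UMIs has a wide counting interval. Barcodes between 51 UMIs and the cell threshold were in no class. Of those with at least 500 UMIs, 6 of 1123 and 10 of 736 would have met the fibroblast rule.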
